A study of Mus musculus with 12 samples.

Results

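The 31 genes described here are p53 target genes, a module chosen by gene symbol for its known regulation and taken from the 55487 genes of the deposited count table. The choice was made with earlier results of these data at hand. All 31 symbols were found, each as a protein-coding gene. They were read in Min6, a line of insulin-producing beta cells from mouse insulinomas, grown for 48 h in 1 of 4 conditions with 3 libraries each. The control cells received DMSO, the solvent. FoxOi cells received 1 µM of AS1842856, an inhibitor of the transcription factor FoxO1. Loperamide cells received loperamide at 5 µM, a drug against diarrhoea that acts on opioid receptors. FoxOi_Loperamide cells received both compounds at these doses. No group carried a transgene or deletion of its own according to the labels, and all libraries come from the same line, which arose in mice whose beta cells expressed the large T antigen of a simian polyomavirus, a protein that binds p53. Nothing in the labels ties the libraries to separate cultures, so the p-values measure the spread between these libraries, which may be technical.

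p53, encoded by Trp53 in the mouse, is a transcription factor that is held at a low level by Mdm2, a ubiquitin ligase that marks it for degradation. DNA damage and other stresses free it from Mdm2, and it then binds pairs of a 10-base consensus unit near its target genes and raises their transcription. The targets stop the cell cycle (Cdkn1a, the cyclin-dependent kinase inhibitor p21), start apoptosis (Bax, Bbc3), take part in DNA repair (Ddb2, Xpc, Polk), act on metabolism and signalling (Tigar, Ddit4l), or feed back on p53 itself (Mdm2, Ccng1). Because p53 is controlled largely through its protein, its activity is commonly read from target mRNAs and not from the level of Trp53 mRNA. FoxO factors are known to act on some of the same genes, Cdkn1a and Bbc3 among them.

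Of the 31 genes, 29 had enough counts to be tested, among 16808 tested genes in all. Pmaip1 and Fas were too low in every group, and Tnfrsf10b passed the count filter only through the groups with the inhibitor, so counts are also given for the 28 genes that would pass in DMSO alone. Libraries held 10640485 to 19499216 counts. The 8 beta cell markers were all detected in every group, and their summed level was 61030 to 84670 CPM (counts per 1000000 of the scaled library size) in DMSO, 34620 to 39430 with FoxOi, 62700 to 63120 with loperamide and 26780 to 31580 with both compounds. Most of this sum was Ins2 and Iapp, with means of 46622 and 18254 CPM in DMSO. Against DMSO, 6 of the 8 were called lower with FoxOi, 3 with loperamide and 6 with both compounds, and 0 higher. Among all genes tested 20.3%, 15.8% and 23.2% were called lower in the same order. Of 6 macrophage markers, 1 stood at 0 in DMSO and in loperamide. Their sum was 4.549 to 6.073 CPM in DMSO, 21.62 to 22.88 with FoxOi, 4.255 to 4.673 with loperamide and 7.313 to 7.672 with both compounds. Most of the sum with FoxOi was Cd68, with means of 2.08 CPM in DMSO and 17.8 with FoxOi. Lyz2 had means of 2.54 and 3.24 CPM in these groups. Of the 3 macrophage markers tested, 1 was called higher and 0 lower with FoxOi against DMSO. With both compounds 1 was higher and 1 lower. Markers of other islet endocrine cells also differed between the groups. Gcg, which encodes glucagon of alpha cells, stood at 567 to 807 CPM in DMSO, 868 to 1250 with FoxOi, 96.5 to 156 with loperamide and 519 to 690.2 with both compounds. Sst, which encodes somatostatin of delta cells, stood at 36.3 to 75.1, 51.3 to 142, 6.47 to 15.9 and 8.31 to 17.1 CPM in the same order. The sums over acinar and ductal, fibroblast and endothelial markers stayed at or under 4.457 CPM in every library. The part of these markers in the results below was not tested. In bulk RNA a change in the share of cells that express a gene and a change in RNA per cell cannot be told apart.

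Most p53 target genes were higher in both groups that received the FoxO1 inhibitor, and highest with both compounds. A gene was called when the Benjamini-Hochberg adjusted p of edgeR's quasi-likelihood test over all genes tested was under 0.05. With FoxOi against DMSO, 18 of 29 were called higher and 0 lower, beside 20.7% and 20.3% of all genes tested. With loperamide 9 were higher and 1 lower, beside 16.1% and 15.8%. With both compounds 25 were higher and 0 lower, beside 22.3% and 23.2%, and 16 of the 25 were at least 2-fold higher, as were 4.81% of all genes tested. Over the 28 genes that would pass the filter in DMSO alone, the counts were 17, 9 and 24 higher, and 15 of the 24 were at least 2-fold higher. The median log2 fold change of the 29 genes was 0.59 with FoxOi, 0.36 with loperamide and 1.17 with both, while that of all genes tested was 0.01, 0.02 and 0.0057. Over the 28 genes that would pass in DMSO alone, the median was 0.57, 0.30 and 1.11. The 3 comparisons share the DMSO libraries. Because the genes were chosen with earlier results of these data known, the counts are not an independent test of the module.

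The single libraries show the same order. Against the mean of the DMSO libraries, the median log2 level of the 29 genes was 0.63, 0.52 and 0.70 in FoxOi replicates 1, 2 and 3, and 24 to 27 of the 29 genes lay above that mean in each. It was 0.32, 0.23 and 0.37 in the loperamide libraries, with 19 to 22 genes above it. It was 1.28, 0.93 and 1.16 in the libraries with both compounds, with 28 or 29 genes above it. The DMSO libraries themselves lay at 0.08, -0.05 and -0.03. In this median no 2 groups overlapped, and the medians of all tested genes stayed between -0.02 and 0.03. The 29 genes include Tnfrsf10b, which passed the count filter only through the groups with the inhibitor. With the replicate number added to the model as a block, the called genes of the loperamide comparison rose from 10 to 19, of which 16 were higher and 3 lower, beside 25.8% and 22.9% of all genes tested.

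**Figure D1:**
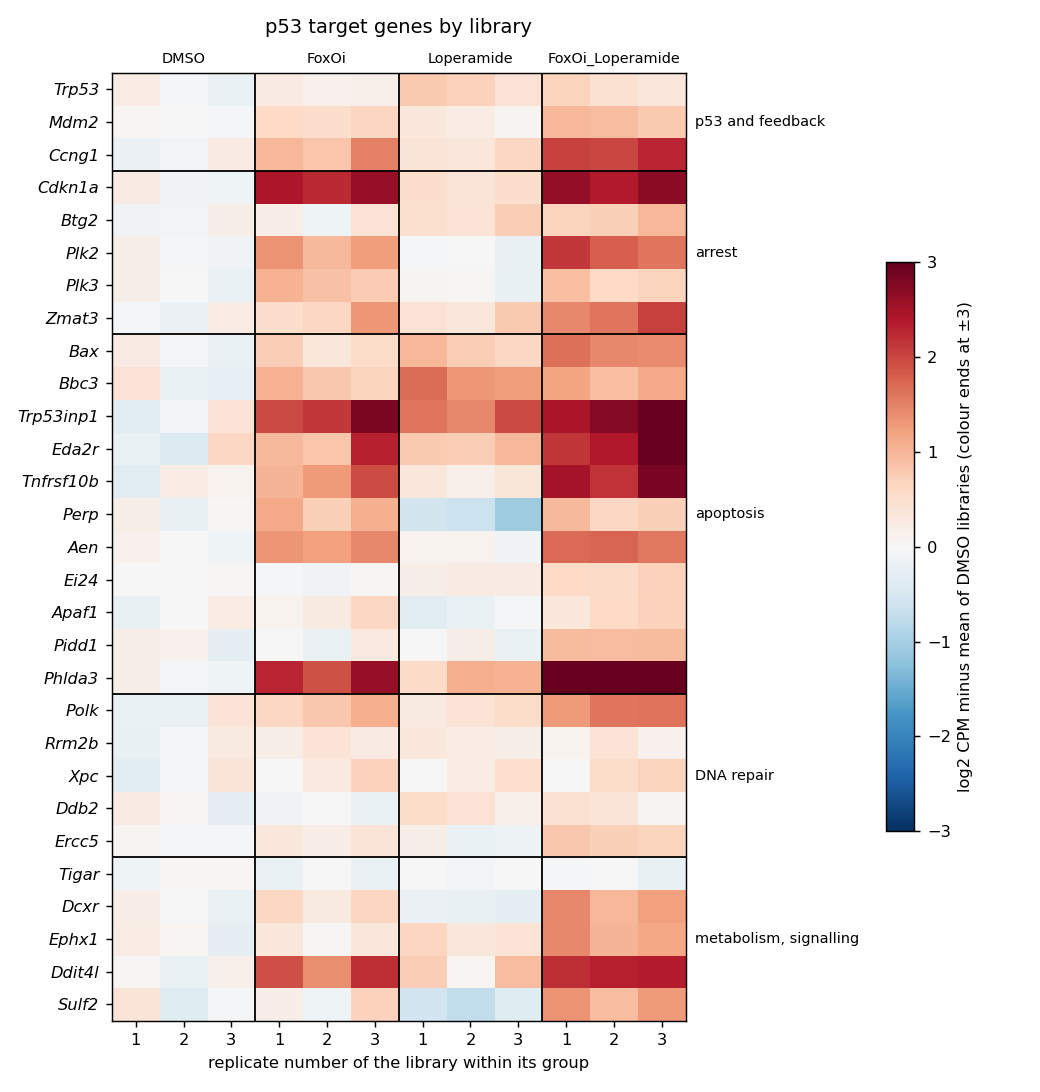
Log2 CPM of the 29 tested p53 target genes (rows, grouped by function) in the 12 libraries (columns, 3 per group), each minus the mean of the DMSO libraries for that gene; red is above that mean and blue below it. Phlda3, Trp53inp1 and Cdkn1a are deep red with the inhibitor, Perp and Sulf2 turn blue with loperamide alone, and Tigar stays pale in every group.

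Promoter sequences from RefSeq on build GRCm38.p6 were at hand for 23 of the 31 genes, and their 250 bases upstream of the start were searched for the p53 consensus unit, a palindromic decamer of 3 purines, a C, 2 bases that are A or T, a G and 3 pyrimidines. An exact unit stood in 9 of the 23 (39.1%), against 2216 of 27025 genes with a promoter (8.2%). Pairs of units with at most 2 mismatches in all and a spacer of 0 to 13 bases, with the central C, A or T, A or T and G always matched, stood in 2 of the 23 (8.7%), Cdkn1a and Bax, against 556 genes (2.06%). The genes were chosen as known p53 targets, so these shares are not an independent test of control by p53. The consensus is the same on both strands, so one pass covers both, and a match describes the letters only. The starts are those of RefSeq, and for Aen, Ei24, Ddit4l and Polk the unit lies within the bounds that the deposited table gives for the gene. Pairs of such units are what p53 is known to bind, and only the stretches of Cdkn1a and Bax hold a pair. The other stretches hold a lone exact unit with no pair within the search limits, and binding was not tested. All are shown with the units in capitals, 10 flanking bases where the promoter reaches that far, and each sequence read 5′ to 3′ along the strand of its gene.
Cdkn1a (chr17:29090896-29090957, + strand): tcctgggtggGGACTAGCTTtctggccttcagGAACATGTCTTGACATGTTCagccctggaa
Bax (chr7:45467069-45467124, - strand): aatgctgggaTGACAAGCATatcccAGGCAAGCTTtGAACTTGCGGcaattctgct
Mdm2 (chr10:117710925-117710954, - strand): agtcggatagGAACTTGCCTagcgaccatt
Ccng1 (chr11:40755452-40755481, - strand): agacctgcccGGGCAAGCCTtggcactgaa
Trp53 (chr11:69580274-69580303, + strand): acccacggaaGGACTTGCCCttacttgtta
Aen (chr7:78895927-78895956, + strand): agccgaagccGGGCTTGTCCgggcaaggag
Ei24 (chr9:36797335-36797354, - strand): cgtgcggcccGGGCATGCCC
Ddit4l (chr3:137623572-137623601, + strand): caactcccagGGGCTTGCCTgggcccctgc
Polk (chr13:96519399-96519428, - strand): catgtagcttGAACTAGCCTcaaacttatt
In Cdkn1a 2 exact units lie 12 bases apart, and the second is followed directly by an inexact unit within the mismatch limit. These adjoining units, the long run in capitals, also form a pair, without a spacer. In Bax the middle unit in capitals is exact, and each of the units beside it has 2 mismatches, so that either completes a pair. The closer one lies 1 base away. All 9 genes with an exact unit were called higher with both compounds, and so were 12 of the 13 tested genes among the 14 without one. The call thus did not separate the sets, and 22.3% of all genes tested were called higher.

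Trp53 and its feedback genes rose with both compounds, by unequal amounts. Trp53 (ENSMUSG00000059552, chromosome 11, 69580359 to 69591873) stood at 73.9, 62.3 and 55.2 CPM in DMSO, 75.4, 69.3 and 70.8 with FoxOi, 109.5, 102 and 85.3 with loperamide and 102, 87.2 and 80.1 with both compounds. The 3 loperamide libraries lay above all DMSO and FoxOi libraries, and the FoxOi libraries overlapped those of DMSO. The log2 fold change against DMSO was 0.63 ± 0.12 (SE, adjusted p = 0.00121) with loperamide and 0.49 ± 0.12 (SE, adjusted p = 0.00438) with both, while FoxOi gave 0.17 ± 0.12 (SE, adjusted p = 0.289), an estimate that was called with the replicate block (adjusted p = 0.0245). Mdm2 (ENSMUSG00000020184, chromosome 10, 117688875 to 117710758), the ubiquitin ligase of p53, stood at 95.7, 91.7 and 90.6 CPM in DMSO, 140.5, 133 and 145 with FoxOi, 116, 109 and 98.0 with loperamide and 185, 176 and 161 with both compounds. No 2 groups overlapped, in the order DMSO, loperamide, FoxOi and both compounds. Its log2 fold change was 0.59 ± 0.08 (SE, adjusted p = 5.93e-05) with FoxOi and 0.91 ± 0.08 (SE, adjusted p = 7.22e-07) with both. Loperamide gave 0.21 ± 0.08 (SE, adjusted p = 0.0662), which was called with the block (adjusted p = 0.00700) and without Loperamide replicate 3 (adjusted p = 0.0382). Ccng1 (ENSMUSG00000020326, chromosome 11, 40748552 to 40755311) encodes cyclin G1, which brings a phosphatase to Mdm2 and so acts back on p53. It stood at 80.0, 86.4 and 108 CPM in DMSO, 181, 162 and 258 with FoxOi, 118.4, 114 and 141 with loperamide and 377, 367 and 443 with both compounds, again with no overlap between neighbouring groups. Ccng1 rose by 1.13 ± 0.17 (SE, adjusted p = 0.000103) on the log2 scale with FoxOi and by 2.11 ± 0.17 (SE, adjusted p = 3.23e-07) with both, which is a 4.32-fold level. Loperamide gave 0.44 ± 0.17 (SE, adjusted p = 0.0559), and this was called with the block (adjusted p = 8.00e-06), with DESeq2 (adjusted p = 0.0422) and without DMSO replicate 3 (adjusted p = 0.0216).

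All 5 genes of cell cycle arrest rose with both compounds, 4 rose with FoxOi and 2 with loperamide. Among all genes tested the shares called higher were 22.3%, 20.7% and 16.1% in the same order. Cdkn1a (ENSMUSG00000023067, chromosome 17, 29090976 to 29100727), which encodes p21, stood at 107, 84.3 and 82.8 CPM in DMSO, 488, 430.0 and 558 with FoxOi, 131, 117.7 and 131 with loperamide and 564, 475 and 581 with both compounds. Its FoxOi libraries lay above all DMSO and loperamide libraries and overlapped those with both compounds. On the log2 scale Cdkn1a rose by 2.43 ± 0.13 (SE, adjusted p = 4.38e-09) with FoxOi, a 5.38-fold level, 0.47 ± 0.12 (SE, adjusted p = 0.00858) with loperamide and 2.56 ± 0.13 (SE, adjusted p = 1.78e-09) with both. Adding loperamide to the inhibitor gave 0.13 ± 0.12 (SE, adjusted p = 0.449), which did not pass the test. Plk2 (ENSMUSG00000021701, chromosome 13, 110395046 to 110400844), a polo-like kinase of the stress response and of centriole duplication, stood at 17.4, 14.8 and 14.5 CPM in DMSO, 39.4, 30.7 and 37.1 with FoxOi, 14.8, 15.4 and 13.4 with loperamide and 67.7, 54.1 and 47.7 with both compounds. The libraries with loperamide alone overlapped DMSO, and the libraries with both compounds lay above all FoxOi libraries. Its log2 fold change was 1.20 ± 0.14 (SE, adjusted p = 8.58e-06), -0.10 ± 0.15 (SE, adjusted p = 0.646) and 1.86 ± 0.14 (SE, adjusted p = 8.11e-08) in the same order.

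Plk3 (ENSMUSG00000028680, chromosome 4, 117128655 to 117133963), a related kinase, stood at 201, 177.9 and 154 CPM in DMSO, 363, 323 and 300.3 with FoxOi, 188, 182 and 152 with loperamide and 330.5, 267 and 280.3 with both compounds. It was the member with the highest level per length in DMSO and rose with FoxOi, by 0.89 ± 0.12 (SE, adjusted p = 3.51e-05), and with both compounds, by 0.72 ± 0.12 (SE, adjusted p = 0.000186), whose libraries overlapped. Loperamide alone gave -0.03 ± 0.12 (SE, adjusted p = 0.875). Zmat3 (ENSMUSG00000027663, chromosome 3, 32334792 to 32366014), a zinc finger protein that binds RNA and regulates splicing, stood at 60.5, 55.8 and 73.9 CPM in DMSO, 91.5, 96.4 and 155 with FoxOi, 84.4, 79.5 and 109 with loperamide and 172, 191 and 262 with both compounds. FoxOi replicate 3 was the highest of its group, and the libraries with both compounds lay above it. On the log2 scale Zmat3 rose by 0.85 ± 0.22 (SE, adjusted p = 0.00800) with FoxOi and 1.72 ± 0.22 (SE, adjusted p = 5.25e-05) with both. Loperamide gave 0.52 ± 0.22 (SE, adjusted p = 0.0910), where the groups did not overlap and the block gave a call (adjusted p = 2.23e-06). Btg2 (ENSMUSG00000020423, chromosome 1, 134075170 to 134079120), an antiproliferative partner of the mRNA deadenylation machinery, stood at 112, 114 and 136 CPM in DMSO, 138, 109 and 163 with FoxOi, 167, 159 and 199 with loperamide and 193, 198 and 239.5 with both compounds. The loperamide libraries and those with both compounds lay above all DMSO libraries, whereas the FoxOi libraries spanned them. Btg2 rose with loperamide, by 0.54 ± 0.14 (SE, adjusted p = 0.00973), a call that was lost without Loperamide replicate 3 (adjusted p = 0.0504), and with both compounds, by 0.80 ± 0.14 (SE, adjusted p = 0.000338). FoxOi gave 0.18 ± 0.14 (SE, adjusted p = 0.330), and the block gave it a call (adjusted p = 0.0280).

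**Figure D2:**
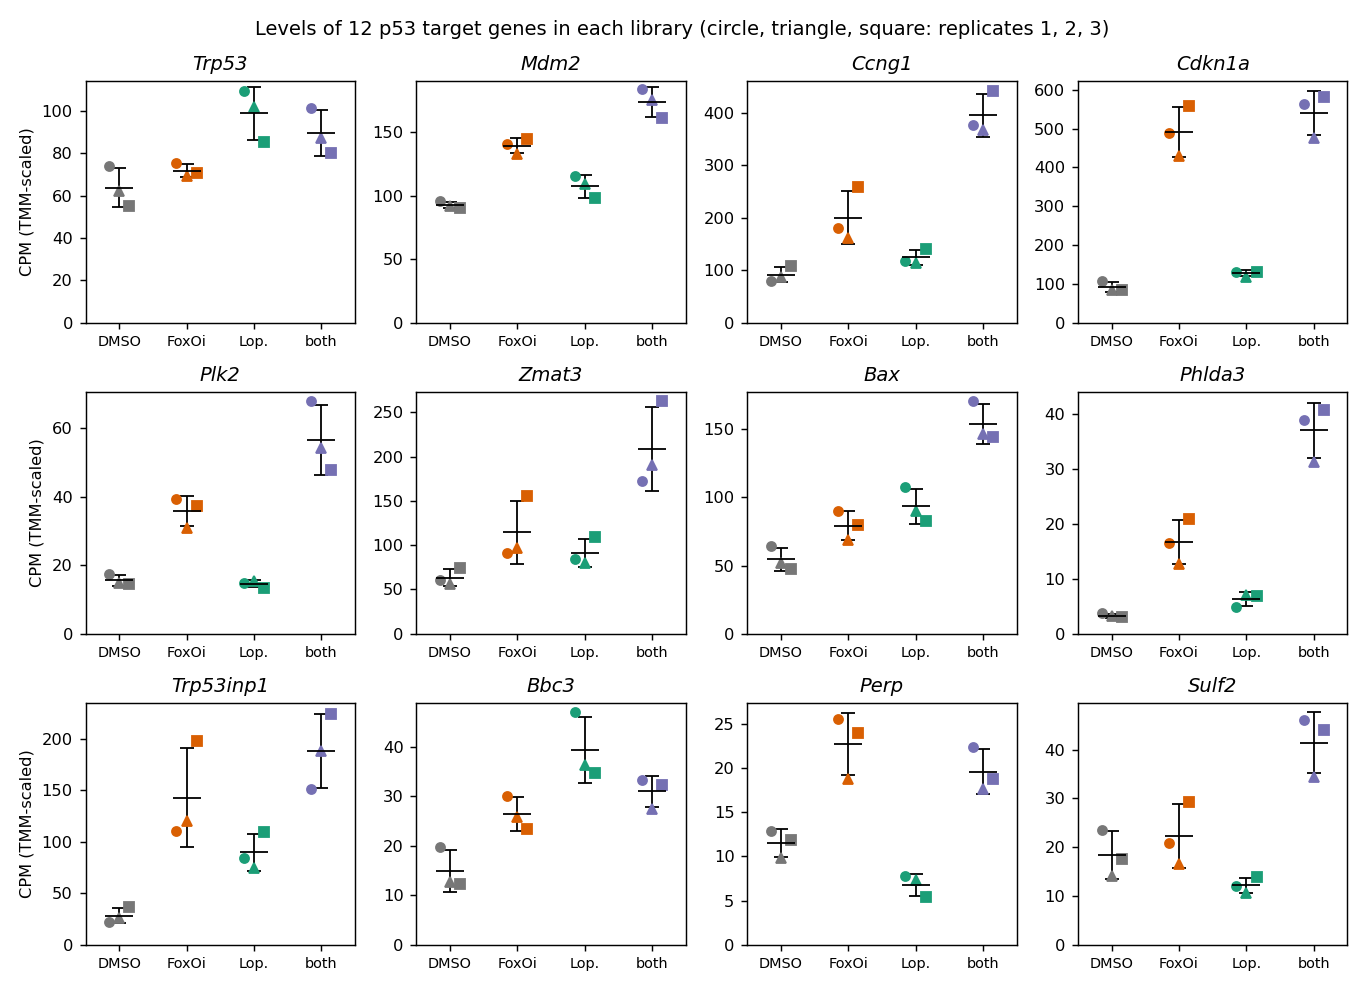
CPM (y axes, each from 0) of 12 p53 target genes in DMSO, FoxOi, loperamide (Lop.) and both compounds; symbols are the 3 libraries of a group (circle, triangle and square for replicates 1, 2 and 3), and the bars give the mean ± SD. Ccng1, Plk2, Zmat3, Bax, Phlda3 and Sulf2 are highest with both compounds, and Bbc3 is highest with loperamide alone. The Trp53 libraries with loperamide overlap those with both, as do the Cdkn1a and Perp libraries with FoxOi.

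Of the 13 apoptosis genes 11 were tested, and all 11 rose with both compounds, beside 22.3% of all genes tested. With FoxOi 8 rose, beside 20.7%, and with loperamide 5 rose and 1 fell, beside 16.1% and 15.8%. The counts with FoxOi and with both compounds include Tnfrsf10b, which passed the count filter only through the groups with the inhibitor. Bax (ENSMUSG00000003873, chromosome 7, 45461697 to 45466898), the protein that opens the outer mitochondrial membrane, stood at 64.0, 52.0 and 47.3 CPM in DMSO, 89.8, 68.6 and 79.6 with FoxOi, 108, 90.1 and 82.5 with loperamide and 171, 147 and 144 with both compounds. All libraries with a single compound lay above DMSO, and those with both compounds above all other libraries. Bax rose on the log2 scale by 0.54 ± 0.13 (SE, adjusted p = 0.00461) with FoxOi, 0.78 ± 0.13 (SE, adjusted p = 0.000506) with loperamide and 1.499 ± 0.14 (SE, adjusted p = 5.25e-07) with both. On the gene annotation, 12.18% of the exon bases of Bax are shared with Gm45808 on the same strand, so some of its counts may be assigned to either. Phlda3 (ENSMUSG00000041801, chromosome 1, 135766119 to 135769136), an inhibitor of the survival kinase Akt, stood at 3.71, 3.17 and 3.01 CPM in DMSO, 16.5, 12.8 and 20.9 with FoxOi, 4.94, 7.14 and 6.90 with loperamide and 39.0, 31.4 and 40.9 with both compounds. No 2 groups overlapped, and the change with both compounds was the largest of the 29 tested genes, 3.49 ± 0.20 (SE, adjusted p = 5.32e-09), 11.2 times the DMSO level. FoxOi gave 2.34 ± 0.20 (SE, adjusted p = 4.46e-07) and loperamide 0.95 ± 0.22 (SE, adjusted p = 0.00446).

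Trp53inp1 (ENSMUSG00000028211, chromosome 4, 11156431 to 11174379), a nuclear partner of p53 that promotes cell death, stood at 22.3, 25.9 and 36.6 CPM in DMSO, 110.3, 120.0 and 198 with FoxOi, 84.3, 74.8 and 110.0 with loperamide and 152, 188 and 224 with both compounds. All treated libraries lay above all DMSO libraries. The log2 fold change was 2.34 ± 0.27 (SE, adjusted p = 3.09e-05) with FoxOi, 1.67 ± 0.26 (SE, adjusted p = 0.000572) with loperamide and 2.74 ± 0.27 (SE, adjusted p = 7.43e-06) with both. Bbc3 (ENSMUSG00000002083, chromosome 7, 16308393 to 16318205), which encodes the BH3-only protein Puma, stood at 19.8, 12.8 and 12.3 CPM in DMSO, 30.1, 25.8 and 23.3 with FoxOi, 47.0, 36.2 and 34.8 with loperamide and 33.2, 27.4 and 32.3 with both compounds. Its highest libraries were the 3 with loperamide alone, and the libraries with both compounds overlapped those with FoxOi. The log2 fold change was 0.81 ± 0.18 (SE, adjusted p = 0.00205), 1.39 ± 0.18 (SE, adjusted p = 4.48e-05) and 1.05 ± 0.18 (SE, adjusted p = 0.000244) in the same order. Aen (ENSMUSG00000030609, chromosome 7, 78895854 to 78911209), an exonuclease that enhances apoptosis, stood at 31.9, 29.1 and 26.4 CPM in DMSO, 73.4, 68.7 and 78.5 with FoxOi, 31.3, 31.5 and 26.9 with loperamide and 94.0, 97.1 and 86.8 with both compounds. It rose with FoxOi, by 1.34 ± 0.10 (SE, adjusted p = 1.02e-07), and with both, by 1.67 ± 0.10 (SE, adjusted p = 7.64e-09), while loperamide alone gave 0.03 ± 0.10 (SE, adjusted p = 0.822) and overlapped DMSO.

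Perp (ENSMUSG00000019851, chromosome 10, 18845020 to 18857073), a membrane protein of desmosomes and an effector of p53-dependent death, was the one member called in opposite directions by the single compounds. It stood at 12.9, 9.83 and 11.8 CPM in DMSO, 25.5, 18.8 and 24.0 with FoxOi, 7.74, 7.29 and 5.39 with loperamide and 22.4, 17.6 and 18.7 with both compounds. The loperamide libraries all lay below DMSO, and the FoxOi libraries and those with both compounds above it. The log2 fold change was 0.98 ± 0.16 (SE, adjusted p = 0.000157) with FoxOi, -0.77 ± 0.17 (SE, adjusted p = 0.00384) with loperamide and 0.77 ± 0.16 (SE, adjusted p = 0.00109) with both. Ei24 (ENSMUSG00000062762, chromosome 9, 36779159 to 36797393), a membrane protein of the endoplasmic reticulum linked to autophagy, stood at 109, 108 and 113 CPM in DMSO, 107, 103 and 113 with FoxOi, 125, 130.02 and 130.3 with loperamide and 166, 164 and 177 with both compounds. FoxOi libraries overlapped DMSO, and those with both compounds lay above all others. For Ei24 the log2 fold change was -0.03 ± 0.07 (SE, adjusted p = 0.750), 0.22 ± 0.07 (SE, adjusted p = 0.0292) and 0.62 ± 0.07 (SE, adjusted p = 6.97e-06) in the same order. The loperamide call of Ei24 was lost when any 1 of 5 libraries was left out, with adjusted p = 0.099999, 0.110 and 0.0518 for DMSO replicates 1, 2 and 3, and 0.0788 and 0.0866 for Loperamide replicates 2 and 3. Pidd1 (ENSMUSG00000025507, chromosome 7, 141438113 to 141444025), a death domain protein that activates caspase-2, stood at 40.1, 38.8 and 29.2 CPM in DMSO, 36.0, 31.2 and 43.6 with FoxOi, 35.3, 40.1 and 30.9 with loperamide and 69.4, 68.3 and 69.2 with both compounds. The libraries with either compound alone overlapped DMSO, with 0.03 ± 0.14 (SE, adjusted p = 0.870) for FoxOi and -0.03 ± 0.14 (SE, adjusted p = 0.909) for loperamide, and the libraries with both compounds stood well apart, at 0.93 ± 0.14 (SE, adjusted p = 6.82e-05).

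The other apoptosis genes were low or changed less. Eda2r, a receptor of the tumour necrosis factor family, had means of 4.52 ± 1.89 CPM in DMSO, 12.9 ± 8.12 with FoxOi, 7.79 ± 0.727 with loperamide and 26.1 ± 8.49 with both (SD, n = 3). Within the FoxOi group, replicate 3 of Eda2r stood at 22.2 CPM against 8.60 and 7.80 in the other libraries. The change of Eda2r was 1.53 ± 0.43 (SE, adjusted p = 0.0145) with FoxOi, a call that needed DMSO replicates 1 and 2 (adjusted p = 0.0666 and 0.0586 with the one or the other left out), and 2.55 ± 0.43 (SE, adjusted p = 0.000498) with both. Without FoxOi replicate 3 the FoxOi change of Eda2r was 0.876 (adjusted p = 0.0427). Loperamide gave Eda2r 0.81 ± 0.46 (SE, adjusted p = 0.213), called with the block (adjusted p = 0.00593). Tnfrsf10b, the death receptor for the ligand Trail, stood at 0.128, 0.249 and 0.220 CPM in DMSO, 0.523, 0.659 and 1.13 with FoxOi, 0.280, 0.228 and 0.288 with loperamide and 1.69, 1.31 and 2.20 with both compounds, so its log2 fold changes of 1.93 ± 0.46 (SE, adjusted p = 0.00386) with FoxOi and 3.08 ± 0.41 (SE, adjusted p = 2.64e-05) with both rest on 9 counts summed over the DMSO libraries, 43 over those with FoxOi and 88 over those with both. Apaf1, the scaffold of the apoptosome, rose with both compounds by 0.53 ± 0.15 (SE, adjusted p = 0.00941). FoxOi gave Apaf1 0.35 ± 0.15 (SE, adjusted p = 0.0782), which was called with the block (adjusted p = 0.000296) and without DMSO replicate 3 (adjusted p = 0.0368) or FoxOi replicate 1 (adjusted p = 0.0416). Loperamide gave Apaf1 -0.20 ± 0.15 (SE, adjusted p = 0.365), which the block called as lower (adjusted p = 0.0432). Pmaip1, which encodes Noxa, and Fas, the receptor for Fas ligand, did not exceed 0.163 CPM in any library and were not tested.

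Of the 5 DNA repair genes, 2 rose with FoxOi, none passed the test with loperamide, and 2 rose with both compounds. Among all genes tested 20.7%, 16.1% and 22.3% were called higher in the same order. The replicate block added Rrm2b and Xpc with FoxOi, Polk, Ddb2 and Xpc with loperamide, and Ddb2 and Xpc with both compounds. Polk (ENSMUSG00000021668, chromosome 13, 96480690 to 96542579), a DNA polymerase that copies past damaged bases, stood at 11.1, 11.1 and 17.1 CPM in DMSO, 19.8, 22.5 and 27.5 with FoxOi, 15.5, 17.1 and 18.9 with loperamide and 31.3, 39.5 and 39.6 with both compounds. The FoxOi libraries lay above DMSO and those with both compounds above FoxOi. Its log2 fold change was 0.84 ± 0.17 (SE, adjusted p = 0.00135) with FoxOi and 1.498 ± 0.17 (SE, adjusted p = 6.45e-06) with both. Loperamide gave Polk 0.40 ± 0.18 (SE, adjusted p = 0.103), called with the block (adjusted p = 0.00301) and without DMSO replicate 3 (adjusted p = 0.00810). Ercc5 (ENSMUSG00000026048, chromosome 1, 44147744 to 44181260), an endonuclease of nucleotide excision repair, stood at 25.3, 23.3 and 23.2 CPM in DMSO, 29.6, 27.7 and 31.1 with FoxOi, 27.1, 20.97 and 21.5 with loperamide and 42.3, 39.3 and 38.3 with both compounds. With both compounds it rose by 0.74 ± 0.10 (SE, adjusted p = 4.53e-05). The FoxOi change of Ercc5, 0.30 ± 0.11 (SE, adjusted p = 0.0341), lost its call when 1 library was left out, with adjusted p = 0.0593, 0.132 and 0.123 for DMSO replicates 1, 2 and 3, and 0.104 and 0.108 for FoxOi replicates 1 and 3.

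Ddb2 (ENSMUSG00000002109, chromosome 2, 91211572 to 91236982), which recognises ultraviolet damage, stood at 16.05, 13.8 and 11.2 CPM in DMSO, 12.5, 13.3 and 11.8 with FoxOi, 19.8, 18.2 and 14.95 with loperamide and 18.6, 17.7 and 14.3 with both compounds. The DMSO libraries overlapped those of every other group. Its change with both compounds was 0.30 ± 0.15 (SE, adjusted p = 0.112), called with the block (adjusted p = 0.00927) and without DMSO replicate 1 (adjusted p = 0.0457). With loperamide Ddb2 had 0.36 ± 0.15 (SE, adjusted p = 0.0818), called with the block (adjusted p = 0.00383) and when DMSO replicate 1 (adjusted p = 0.0458) or Loperamide replicate 3 (adjusted p = 0.0458) was left out. Acp2 on the opposite strand covers 23.83% of the exon bases of Ddb2, and no source used here gives the strand setting of the counting. Xpc (ENSMUSG00000030094, chromosome 6, 91489305 to 91515888), the other damage sensor of nucleotide excision repair, stood at 12.9, 15.2 and 20.8 CPM in DMSO, 16.1, 19.7 and 26.1 with FoxOi, 16.1, 18.7 and 22.7 with loperamide and 16.2, 23.6 and 25.6 with both compounds. All groups overlapped. Its change with both compounds was 0.42 ± 0.22 (SE, adjusted p = 0.148), and the block gave calls with FoxOi (adjusted p = 0.00267), loperamide (adjusted p = 0.0456) and both (adjusted p = 0.000347). For both compounds Xpc was also called without DMSO replicate 3 (adjusted p = 0.0389) or FoxOi_Loperamide replicate 1 (adjusted p = 0.0419). Rrm2b, the p53-inducible subunit of ribonucleotide reductase, had 0.28 ± 0.13 (SE, adjusted p = 0.107) with FoxOi, called with the block (adjusted p = 0.0247) and without DMSO replicate 3 (adjusted p = 0.0251). With both compounds Rrm2b had 0.21 ± 0.13 (SE, adjusted p = 0.208), called without DMSO replicate 3 (adjusted p = 0.0415).

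Of the 5 genes of metabolism and signalling, 4 rose with both compounds, beside 22.3% of all genes tested. Ddit4l (ENSMUSG00000046818, chromosome 3, 137621612 to 137628333), an inhibitor of mTORC1 signalling, stood at 1.28, 1.06 and 1.39 CPM in DMSO, 5.11, 3.46 and 6.25 with FoxOi, 2.14, 1.29 and 2.44 with loperamide and 6.20, 6.75 and 6.89 with both compounds. It was the lowest of these genes and rose by 1.99 ± 0.26 (SE, adjusted p = 2.81e-05) with FoxOi and 2.41 ± 0.26 (SE, adjusted p = 2.90e-06) with both, whose libraries overlapped. Loperamide gave Ddit4l 0.66 ± 0.31 (SE, adjusted p = 0.117), called without Loperamide replicate 2 (adjusted p = 0.0438). Dcxr (ENSMUSG00000039450, chromosome 11, 120725399 to 120727281), a reductase of the xylulose pathway, stood at 10.2, 8.71 and 7.70 CPM in DMSO, 13.7, 10.6 and 13.8 with FoxOi, 7.74, 7.599 and 7.33 with loperamide and 24.0, 17.8 and 20.8 with both compounds. It rose by 0.51 ± 0.15 (SE, adjusted p = 0.0121) with FoxOi and 1.23 ± 0.15 (SE, adjusted p = 8.38e-06) with both, and the FoxOi call needed DMSO replicates 2 and 3 (adjusted p = 0.0519 and 0.0707 with the one or the other left out) and FoxOi replicate 1 (adjusted p = 0.0590 when left out). Ephx1 (ENSMUSG00000038776, chromosome 1, 180976210 to 181020904), the microsomal epoxide hydrolase, stood at 34.3, 30.7 and 23.8 CPM in DMSO, 37.0, 29.8 and 37.0 with FoxOi, 46.0, 36.9 and 39.1 with loperamide and 79.3, 59.4 and 65.5 with both compounds. It rose by 1.20 ± 0.15 (SE, adjusted p = 1.06e-05) with both compounds, with those libraries above all others. Its rise with loperamide, 0.45 ± 0.15 (SE, adjusted p = 0.0297), lost its call when 1 library was left out, with adjusted p = 0.0666 and 0.135 for DMSO replicates 2 and 3, and 0.123 and 0.0536 for Loperamide replicates 1 and 3. FoxOi gave Ephx1 0.22 ± 0.15 (SE, adjusted p = 0.250), called with the block (adjusted p = 0.0386).

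Sulf2 (ENSMUSG00000006800, chromosome 2, 166073089 to 166155663), an enzyme that removes sulfate groups from heparan sulfate outside the cell, stood at 23.6, 14.0 and 17.6 CPM in DMSO, 20.8, 16.5 and 29.4 with FoxOi, 12.02, 10.7 and 13.9 with loperamide and 46.0, 34.4 and 44.0 with both compounds. The loperamide libraries all lay below DMSO, and those with both compounds above every other library. Its change was 0.27 ± 0.22 (SE, adjusted p = 0.346) with FoxOi, -0.59 ± 0.23 (SE, adjusted p = 0.0683) with loperamide and 1.17 ± 0.22 (SE, adjusted p = 0.000638) with both. The lower value with loperamide was called with the block (adjusted p = 0.000911), with DESeq2 (adjusted p = 0.0327) and without DMSO replicate 2 (adjusted p = 0.0260). Tigar, a phosphatase that lowers glycolytic flux, did not pass the test in any of the 7 comparisons, with -0.13 ± 0.09 for FoxOi, -0.04 ± 0.09 for loperamide and -0.09 ± 0.09 for both.

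When loperamide was added to the inhibitor, 17 of the 29 genes rose and 0 fell against FoxOi alone, beside 11.5% higher and 15.1% lower among all genes tested. Over the genes that would pass the filter in DMSO alone, the count was 16 of 28. The largest called change among these 28 was that of Phlda3, at 1.15 ± 0.17 (SE, adjusted p = 0.000116). Ccng1 had 0.98 ± 0.16 (SE, adjusted p = 0.000528), Ephx1 0.98 ± 0.14 (SE, adjusted p = 0.000140) and Bax 0.96 ± 0.13 (SE, adjusted p = 8.08e-05). Calls of this comparison were lost without FoxOi replicate 2 for Mdm2 (adjusted p = 0.0538), Zmat3 (0.0507), Tnfrsf10b (0.0523), Aen (0.0809) and Ddb2 (0.0720). Ddb2 also lost its call without FoxOi replicate 1 (0.0704) or 3 (0.123) or FoxOi_Loperamide replicate 1 (0.147) or 2 (0.120). Calls were further lost without FoxOi_Loperamide replicate 3 for Tnfrsf10b (0.0608) and without FoxOi_Loperamide replicate 2 for Aen (0.0672). The replicate block added calls for 6 higher genes, Trp53 (adjusted p = 0.000316), Bbc3 (0.0373), Trp53inp1 (6.79e-05), Eda2r (1.07e-05), Apaf1 (0.0301) and Ddit4l (0.0240), and for Plk3 as lower (0.0235). Trp53 was also called without FoxOi_Loperamide replicate 3 (0.0464), and Trp53inp1 (0.0331) and Eda2r (0.00109) were called without FoxOi replicate 3. When the inhibitor was added to loperamide, 22 of the 29 genes rose and 0 fell, beside 18.4% and 20.5%. Over the genes that would pass the filter in DMSO alone, 21 of 28 rose, and the largest changes among them were those of Phlda3, at 2.54 ± 0.19 (SE, adjusted p = 1.65e-07), and Cdkn1a, at 2.09 ± 0.12 (SE, adjusted p = 2.62e-08).

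The interaction asks whether the log2 change with both compounds differs from the sum of the single changes. It was called for 7 of the 29 genes, 5 above and 2 below the sum, beside 3.66% above and 5.82% below among all genes tested. Above the sum were Sulf2, at 1.49 ± 0.31 (SE, adjusted p = 0.00845), Dcxr, at 0.95 ± 0.21 (SE, adjusted p = 0.00970), Pidd1, at 0.93 ± 0.20 (SE, adjusted p = 0.00715), Plk2, at 0.76 ± 0.20 (SE, adjusted p = 0.0236), and Ei24, at 0.43 ± 0.10 (SE, adjusted p = 0.0145). For Sulf2, Dcxr, Pidd1 and Plk2, loperamide alone gave a log2 change below 0 against DMSO that did not pass the test, and with the inhibitor present it gave 0.90 ± 0.21, 0.72 ± 0.14, 0.90 ± 0.14 and 0.66 ± 0.13. Below the sum were Bbc3, at -1.16 ± 0.25 (SE, adjusted p = 0.00768), and Trp53inp1, at -1.27 ± 0.36 (SE, adjusted p = 0.0478), both of which each compound raised on its own. The call of Plk2 was lost without FoxOi replicate 2 (adjusted p = 0.0611), Loperamide replicate 3 (0.0662) or FoxOi_Loperamide replicate 1 (0.0513). That of Trp53inp1 was lost when any 1 of 8 libraries was left out: adjusted p = 0.114 and 0.114 for DMSO replicates 1 and 2, 0.0509 and 0.0696 for FoxOi replicates 2 and 3, 0.0755 and 0.108 for Loperamide replicates 1 and 3, and 0.103 and 0.0953 for FoxOi_Loperamide replicates 1 and 2. Calls were gained for Ccng1 without FoxOi replicate 3 (adjusted p = 0.0211) and for Ercc5 without DMSO replicate 3 (0.0372) or Loperamide replicate 1 (0.0140). For the other 22 genes, Cdkn1a (-0.34 ± 0.17), Mdm2 (0.10 ± 0.12), Bax (0.18 ± 0.19) and Phlda3 (0.20 ± 0.28) among them, a difference from the sum did not pass the test with group as the only term. With the replicate block, Cdkn1a (adjusted p = 0.0150) and Trp53 (0.0117) were called below the sum. The block also called Ccng1 (7.93e-05), Ercc5 (0.00238), Ephx1 (0.00256), Apaf1 (0.00767), Zmat3 (0.00870) and Perp (0.0148) above it.

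**Figure D3:**
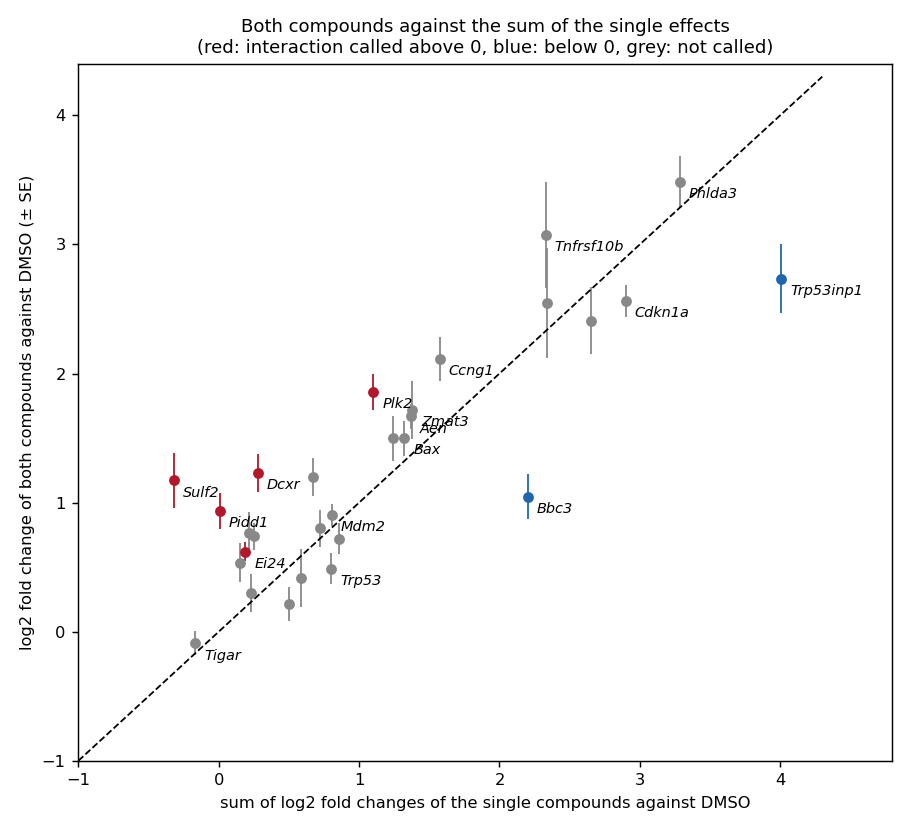
Log2 fold change with both compounds against DMSO (y axis, ± SE) over the sum of the log2 fold changes of the single compounds (x axis) for the 29 tested genes; on the dashed line the values are equal, and both axes use the same DMSO libraries. Sulf2, Dcxr, Pidd1, Plk2 and Ei24 (red) lie above the line with a called interaction, and Bbc3 and Trp53inp1 (blue) lie below it.

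The single compounds were also compared with each other. Of the 29 genes, 16 were higher and 5 lower with FoxOi than with loperamide, beside 25.5% and 24.1% of all genes tested. Without Tnfrsf10b, 15 of 28 were higher. As log2 differences, FoxOi minus loperamide, those in favour of FoxOi were led by Cdkn1a, at 1.96 ± 0.12 (SE, adjusted p = 1.45e-08), and Perp, at 1.75 ± 0.17 (SE, adjusted p = 8.86e-07). The 5 genes that were higher with loperamide were Trp53, at -0.46 ± 0.12 (SE, adjusted p = 0.00567), Bbc3, at -0.57 ± 0.17 (SE, adjusted p = 0.0121), Ddb2, at -0.49 ± 0.15 (SE, adjusted p = 0.0141), Btg2, at -0.36 ± 0.14 (SE, adjusted p = 0.0481), and Ei24, at -0.26 ± 0.07 (SE, adjusted p = 0.00867). Among these 5, calls were lost for Bbc3 without FoxOi replicate 3 (adjusted p = 0.0524) or Loperamide replicate 1 (0.0651), for Ddb2 without the same libraries (0.0507 and 0.0643), and for Btg2 without FoxOi replicate 1 (0.0675) or 2 (0.223) or Loperamide replicate 1 (0.0667) or 3 (0.197). Among the 16 genes higher with FoxOi, Trp53inp1 lost its call without FoxOi replicate 3 (adjusted p = 0.185), Loperamide replicate 1 (0.111) or 2 (0.135). Tnfrsf10b lost it without FoxOi replicate 3 (0.0653), Ercc5 without Loperamide replicate 2 (0.0702) or 3 (0.0614), and Polk without FoxOi replicate 2 (0.0744) or 3 (0.193) or any 1 loperamide library (0.145, 0.105 and 0.0502 for replicates 1, 2 and 3). The block added calls for Zmat3 (adjusted p = 0.000539) and Eda2r (0.00394) as higher and for Bax (0.00355) and Ephx1 (0.0273) as lower with FoxOi.

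Levels can be set side by side between genes only per length. On the deposited FPKM scale, the means in DMSO ran from 0 for Fas to 74.3 for Plk3. After Plk3 came Bax at 62.4, Ei24 at 45.1, Btg2 at 43.8, Trp53 at 34.0, Cdkn1a at 33.4 and Mdm2 at 29.3. With both compounds Cdkn1a stood at 198, Bax at 177 and Ccng1 at 112 FPKM. Phlda3 reached 25.7 from 2.28, so the gene with the largest fold change remained far below Cdkn1a in level.

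Genes around the p53 pathway outside these 31 moved less uniformly. Of 26 regulators of p53, 24 were tested, and 10 were higher and 1 lower with both compounds, 5 and 2 with FoxOi, and 4 and 0 with loperamide. Among all genes tested the shares higher and lower were 22.3% and 23.2% with both compounds, 20.7% and 20.3% with FoxOi, and 16.1% and 15.8% with loperamide. The regulators called with a single compound were near or below the shares of all genes. The regulators called in either direction with both compounds numbered 11, and 6 without FoxOi_Loperamide replicate 1, 7 without FoxOi_Loperamide replicate 2 and 7 without DMSO replicate 2. Those called with loperamide numbered 4, and 2 without DMSO replicate 2. With the replicate block the regulators called higher and lower numbered 10 and 5 with FoxOi, beside 29% and 27.1% of all genes tested. They numbered 10 and 0 with loperamide, beside 25.8% and 22.9%, and 15 and 3 with both compounds, beside 29.7% and 29.3%. The 5 regulators with the smallest adjusted p with both compounds were Chek2, a checkpoint kinase that phosphorylates p53, at 1.19 ± 0.11 (SE, adjusted p = 4.42e-07), Rpl5, a ribosomal protein that binds Mdm2, at 0.72 ± 0.11 (SE, adjusted p = 8.48e-05), Cdkn2a, whose product Arf inhibits Mdm2, at 0.71 ± 0.12 (SE, adjusted p = 0.000179), Mdm4, a relative of Mdm2, at 0.69 ± 0.14 (SE, adjusted p = 0.00107), and Atr, a kinase of the replication stress response, at 0.52 ± 0.12 (SE, adjusted p = 0.00274).

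Among 37 other known targets of p53, 31 were tested. With both compounds 14 were higher and 5 lower, with FoxOi 10 and 6, and with loperamide 9 and 5, to be read against the shares of all genes given for the regulators. The counts of lower genes were near or below those shares. The median log2 fold change of these targets with both compounds was 0.27, against 1.17 for the 29 genes above. The 5 with the smallest adjusted p were Bid, a BH3-only protein, at 2.16 ± 0.14 (SE, adjusted p = 2.20e-08), Tap1, a peptide transporter of antigen presentation, at 1.43 ± 0.15 (SE, adjusted p = 2.09e-06), Sesn2, a stress protein that restrains mTORC1, at 1.10 ± 0.12 (SE, adjusted p = 3.89e-06), Steap3, a ferrireductase, at 1.71 ± 0.20 (SE, adjusted p = 8.31e-06), and Trp53i11, at -1.13 ± 0.13 (SE, adjusted p = 4.78e-06), which was lower.

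The third list held 20 cell division genes that p53 is known to lower through p21 and the DREAM repressor complex, and all 20 were tested. With FoxOi 12 were lower and 1 higher, with loperamide 18 were lower and 0 higher, and with both compounds 10 were lower and 0 higher, beside 20.3%, 15.8% and 23.2% lower among all genes tested. Their median log2 fold change was -0.46, -0.97 and -0.28 in that order. Of the 20 genes, 14 were called higher with FoxOi than with loperamide and 1 lower, beside 25.5% and 24.1% of all genes tested. The interaction was called above 0 for 15 of the 20, beside 3.66% of all genes. Rrm2, a subunit of ribonucleotide reductase, had -0.19 ± 0.12 (SE, adjusted p = 0.225) with FoxOi, called lower with the block (adjusted p = 0.0270), -1.56 ± 0.12 (SE, adjusted p = 4.52e-07) with loperamide and -1.27 ± 0.12 (SE, adjusted p = 8.47e-07) with both. Cdc20, an activator of the anaphase-promoting complex, had -1.44 ± 0.15, -1.22 ± 0.15 and -1.22 ± 0.15, and Plk1, the mitotic polo-like kinase, -1.26 ± 0.15, -1.26 ± 0.15 and -1.20 ± 0.15.

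**Figure D4:**
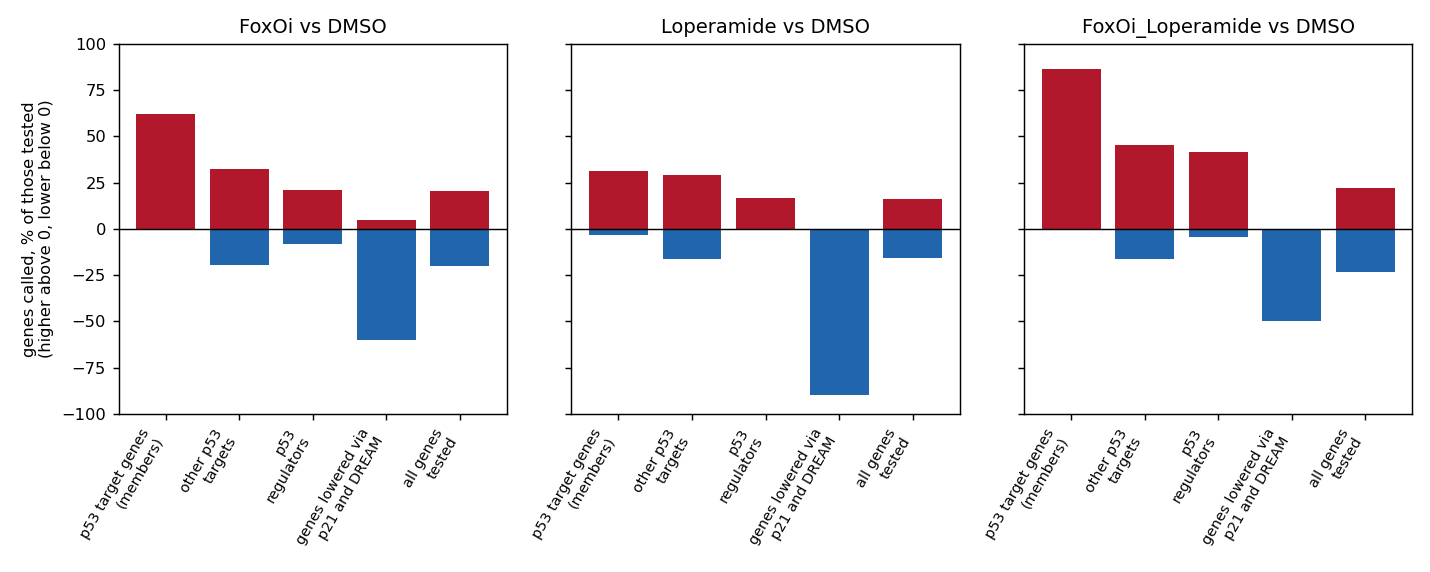
Share of tested genes called higher (red, above 0) or lower (blue, below 0), in percent, for the p53 target genes, other p53 targets, p53 regulators, genes lowered through p21 and DREAM, and all genes tested, with FoxOi (left), loperamide (centre) and both compounds (right) against DMSO. The bar of p53 target genes called higher rises from 9 of 29 with loperamide to 18 with FoxOi and 25 with both, and the blue bar of the cell division genes is longest with loperamide, 18 of 20.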

How the data were processed

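Messenger RNA was sequenced from Min6 cells in 12 libraries, single reads of 50 bases from a stranded kit, per the labels' protocols. The authors deposited raw counts per gene and FPKM values. Tools listed in the submitters' processing notes are DESeq2, Picard 2.19.2 and STAR 2.7.5a, with mm10 and GRCm38 as builds; which tool counted the reads, and on which strand, is not given in the sources used here. FPKM as deposited equal counts over length over a library factor within 0.354% of DESeq2 size factors (13180 genes). All 31 genes have the location that GENCODE M21 gives.

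Counts were tested in edgeR 4.0.16 (R 4.3.3) by a quasi-likelihood fit to all 12 libraries with group as the only term, after filterByExpr (minimum count 10, total 15) and TMM scaling. P-values were adjusted by Benjamini-Hochberg over 16808 genes. Log2 fold changes used a prior count of 0.125. SE was taken as |log2 fold change| over the square root of F. In counts simulated for FoxOi against DMSO (16470 genes tested), the test called 26 of 67 genes set to a 1.5-fold difference and 54 of 67 set to 2-fold, each in the right direction. It also called 7 genes that had none. Alternatives were DESeq2 1.42.0, RLE scaling, no filter, only the groups compared, a replicate block, limma 3.58.1 on log2(FPKM + 0.1) or log2(FPKM + 1), and leaving out each library. Chi-square per degree of freedom between libraries of one group ran from 5.34 to 33.5. TMM and DESeq2 scaling differed by at most 0.0161 log2.

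The labels number the libraries 1 to 3 in each group, and same-numbered libraries of all groups carry the same code in their descriptions; what number and code stand for is not given in the sources used here. Same-numbered libraries of 2 groups deviated together with r from 0.0915 to 0.507 over genes (18 pairs), and different numbers with -0.469 to 0.105. All 3 pairs exceeded 0.1 in every comparison except both compounds against loperamide. The main calls of every comparison had group as the only term and so did not use this pairing. Calls with the number as a block are given beside them as an alternative. They are also given for both compounds against loperamide and for the interaction, which includes that comparison.

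The genes and the lists around them were chosen with earlier results of these data known. Values per library are given for Trp53, Mdm2, Ccng1, Cdkn1a, Bax, Phlda3, the arrest genes, the 4 genes per function with the smallest adjusted p with both compounds, and genes with a called interaction or opposite calls. From the other lists the 5 genes (3 for the DREAM list) with the smallest adjusted p with both compounds are named.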

Additional observations from a re-analysis of the deposited data

Results flagged for a closer look

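The effect of loperamide in the presence of the inhibitor differed from its effect in DMSO for 7 p53 target genes, by the interaction term of edgeR's quasi-likelihood test over all 12 libraries. The log2 difference was 1.49 ± 0.31 (SE) for Sulf2 (adjusted p = 0.00845), 0.95 ± 0.21 for Dcxr (adjusted p = 0.00970), 0.93 ± 0.20 for Pidd1 (adjusted p = 0.00715), 0.76 ± 0.20 for Plk2 (adjusted p = 0.0236) and 0.43 ± 0.10 for Ei24 (adjusted p = 0.0145). It was -1.16 ± 0.25 for Bbc3 (adjusted p = 0.00768) and -1.27 ± 0.36 for Trp53inp1 (adjusted p = 0.0478). Plk2 kept its call in 15 of 19 alternatives and Trp53inp1 in 8 of 19. Among all genes tested, the interaction was called above 0 for 3.66% and below 0 for 5.82%. The groups hold 3 libraries each, and no test for outlying libraries was run. Leaving out each library in turn was part of the 19 alternatives.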

How the results depend on the processing

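No called p53 target gene changed direction under any alternative in any of the 7 comparisons. All 25 genes called with both compounds against DMSO and all 22 against loperamide kept their call under every alternative, 14 of 18 did with FoxOi, 7 of 10 with loperamide, 12 of 17 for both compounds against FoxOi, 13 of 21 for FoxOi against loperamide and 5 of 7 for the interaction. Leaving out a library gave 15 to 18 called genes with FoxOi, 9 to 10 with loperamide, 25 to 27 with both, 12 to 18 for both against FoxOi, 22 for both against loperamide, 16 to 20 for FoxOi against loperamide and 5 to 9 for the interaction.

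With the replicate number as a block, called p53 target genes with loperamide went from 10 to 19 and those with an interaction from 7 to 15 (11 above and 4 below 0), while all genes called went from 5370 to 8179 with loperamide, from 4465 to 7504 for both compounds against FoxOi and from 1594 to 4334 for the interaction. For both compounds against loperamide the block added Btg2 as higher (adjusted p = 0.00114) and Bbc3 as lower (0.00276). Called regulators of p53 went from 7 to 15 with FoxOi, from 4 to 10 with loperamide, from 11 to 18 with both and from 0 to 5 for the interaction. The block moved no other count of called p53 target genes or of all genes, and none for the other p53 targets and the DREAM list against DMSO or in the interaction, by over 1.5 times.

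Ercc5, Tnfrsf10b, Ei24, Ddb2, Polk, Trp53inp1, Btg2, Ephx1 and Plk2 also lost a call in some comparison without a filter, with DESeq2, with only the groups compared or on FPKM values; the cause was not tested. Values near 0 that were not called changed sign when a library was left out; their lowest and highest log2 fold changes follow. For FoxOi against DMSO this holds of Ei24 from -0.076 to 0.00033 and Pidd1 from -0.13 to 0.14. For loperamide against DMSO this holds of Plk3 from -0.14 to 0.059, Aen from -0.051 to 0.11, Pidd1 from -0.18 to 0.064, Ercc5 from -0.17 to 0.018, Rpl5 from -0.00024 to 0.17, Mdm4 from -0.061 to 0.17 and Steap3 from -0.012 to 0.19. For both compounds against FoxOi this holds of Rrm2b from -0.17 to 0.0084, Xpc from -0.058 to 0.28 and Tigar from -0.011 to 0.12. For both compounds against loperamide this holds of Rrm2b from -0.12 to 0.0496, Ddb2 from -0.16 to 0.049 and Tigar from -0.11 to 0.015. For FoxOi against loperamide this holds of Pidd1 from -0.076 to 0.17, Rrm2b from -0.019 to 0.0898 and Xpc from -0.098 to 0.25. For the interaction this holds of Btg2 from -0.055 to 0.23, Eda2r from -0.12 to 0.87, Xpc from -0.34 to 0.038 and Ddb2 from -0.036 to 0.24. Without a filter and with only the groups compared, Rrm2b had 0.011 and 0.017 for both compounds against loperamide, and on log2(FPKM + 1) the interaction of Ddit4l was 0.0794. Depth limits Tnfrsf10b, Pmaip1 and Fas.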

Other observations

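The other members of the p53 family had few counts. Summed over the 3 libraries of a group, Trp63 had 9 counts in DMSO, 12 with FoxOi, 4 with loperamide and 16 with both compounds, and Trp73 had 14, 5, 9 and 8. Several targets that are read as p53 responses in other cells were also too low to test. Gdf15, a secreted stress factor, had 3, 4, 2 and 4 counts in the same order, and Spata18, a mitochondrial quality control protein, had 0, 1, 0 and 0. Thbs1, a matrix protein that restrains angiogenesis, had 8, 6, 1 and 4, and Igfbp3, a binding protein of insulin-like growth factors, had 1, 5, 0 and 0. At this depth differences between groups in these genes were not detectable.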
